A study of Homo sapiens with 11 samples.

Results

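The D-type cyclins and the genes of the G1 switch on which they act were followed across 4 constructs in T-REx-293 cells, HEK293 human embryonic kidney cells modified so that tetracycline turns on expression from a plasmid. The set held 9 genes, CCND1, CCND2, CCND3, CDK4, CDK6, CDKN1B, RB1, RBL1 and RBL2, of 14555 genes measured, and was formed from all exon probe sets whose only gene symbol was one of these names. The genes were chosen by name with the outcome of the knockdown in view, so their differences between knockdown and control are given as a description, without p-values. The comparisons that the choice did not use, between the constructs within each arm, are tested.

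The knockdown arm held shRNA B and shRNA A, a pair of shRNAs against Tat-SF1 with 3 arrays each. The control arm held an shRNA against GFP, with 3 arrays, and an empty vector, with 2 arrays. Cells of all 4 constructs carried a GFP plasmid and received tetracycline at 2.5 µg/mL for 72 h, so the GFP shRNA had a target in these cells and every control shared the inducer. Total RNA was hybridised to Affymetrix Human Exon 1.0 ST arrays, which read a gene with several short probe sets spread over its exons. The series design calls the replicates biological, the array of empty vector replicate 3 had failed quality control, and whether a stable line came from 1 clone is not given in the sources used here.

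Passage from G1 into S phase depends on the retinoblastoma family of pocket proteins, RB1, RBL1 (p107) and RBL2 (p130), which bind E2F transcription factors and hold E2F target genes down. Cyclins D1, D2 and D3 pair with the kinases CDK4 and CDK6, and the active complexes phosphorylate the pocket proteins and release E2F. CDKN1B encodes p27, which inhibits CDK2 complexes and also helps cyclin D assemble with its kinases. HEK293 cells carry the adenovirus E1A protein, which binds the pocket proteins directly. HTATSF1 encodes Tat-SF1, a protein known both for its role in transcription elongation and for binding the U2 snRNP during splicing.

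The arrays resembled each other closely, with correlations of gene values between 0.969 and 0.989 over the 55 pairs. Array medians on the log2 scale ran from 7.901 to 7.904, and values of dim probe sets crowd near that level, so that a difference close to it may be compressed. Knockdown arrays were slightly dimmer, the mean of an array's 3000 brightest genes being 9.256 ± 0.0447 (SD, n = 6), against 9.323 ± 0.0411 (SD, n = 5) for control arrays. The dimmest array was shRNA B replicate 1 and the brightest was GFP shRNA replicate 1. A suffix in the array names marked 4 of the 6 knockdown arrays and 0 of the 5 controls. It marked every shRNA B array and, of the shRNA A arrays, only replicate 3. A difference between shRNA B and shRNA A can thus not be fully told apart from one that goes with the suffix. The 7 markers of HEK293 cells fixed for the check (PAX2, EYA1, NEFL, NEFM, VIM, KRT18 and CDH2) averaged between 8.75 and 8.86 in the knockdown arrays and between 8.78 and 9.00 in the controls, 3 of them lying within 0.3 of the dim level. The 11 measured markers of blood, fibroblasts, endothelium and hepatocytes all lay near it, between 7.92 and 8.13. A gene value is the median of the log2 values of a gene's probe sets on an array.

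The targeted gene HTATSF1 was lower with either shRNA against it. It had gene values of 8.11, 8.19 and 8.21 with shRNA B and 8.29, 8.21 and 8.22 with shRNA A, against 8.53, 8.63 and 8.49 with GFP shRNA and 8.54 and 8.32 with the empty vector. Every knockdown array lay below every control. After subtracting each array's median on the linear scale, the HTATSF1 signal averaged 39.5% of the control mean with shRNA B and 50.8% with shRNA A.

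CCND1, which encodes cyclin D1, was lower with both shRNAs in all 6 knockdown arrays. Its gene value was 8.77, 8.84 and 8.73 with shRNA B and 8.95, 8.86 and 8.86 with shRNA A, against 9.09, 9.10 and 9.01 with GFP shRNA and 9.17 and 9.15 with the empty vector. No knockdown array reached any control. Its mean was 8.83 ± 0.076 across knockdown arrays (SD, n = 6) and 9.10 ± 0.062 across control arrays (SD, n = 5), a log2 difference of -0.27 (SE 0.052, 95% interval -0.38 to -0.16). Since a large part of each value is the dim level, the same arrays were also read as linear signal above the array median, where CCND1 averaged 218 ± 24.1 units in the knockdown arrays and 312 ± 23.5 units in the controls, or 69.8% of control. In RNA from whole cultures, fewer cells in the stages that express a gene and less RNA per cell cannot be told apart.

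By construct, CCND1 averaged 8.78 ± 0.054 with shRNA B, 8.89 ± 0.051 with shRNA A and 9.07 ± 0.046 with GFP shRNA (SD, n = 3 each). With the empty vector it averaged 9.16 ± 0.018 (SD, n = 2). The steps within each arm were smaller than the step between them. shRNA B stood -0.32 (SE 0.060) from the control and shRNA A -0.22 (SE 0.060), comparisons that share their control arrays. The tested difference between shRNA B and shRNA A was -0.11 (95% interval -0.25 to 0.03, limma adjusted p = 0.998), and that between GFP shRNA and the empty vector was -0.10 (95% interval -0.25 to 0.06, limma adjusted p = 0.949). Neither passed the threshold of an adjusted p under 0.05.

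Of the 9 genes, only CCND1 passed that threshold in the pooled comparison of knockdown and control with limma, in which 0.22% of all 14555 genes passed; the choice of the genes used this comparison, so nothing is read from the count. CCND1 was likewise the only one of the 9 with every knockdown array below every control, which held for 2.03% of all genes, and 0 of the 9 had every knockdown array above every control, which held for 0.22% of all genes. The mean was lower in the knockdown arrays for 8 of the 9 genes, against 67.1% of all genes. This count was 8 in 13 of 21 alternatives and otherwise lower, down to 4 of 9 without the brightest and the dimmest array and 4 of the 8 genes measured with a higher limit on dim probe sets. The median difference of the 9 was -0.04, beside -0.02 over all genes. Array brightness and the array-name suffix moved with the same groups as CCND1. Without the brightest and the dimmest array, the CCND1 difference was -0.26, and CCND1 no longer passed. Nor did it pass over the 7 arrays without the suffix, where the difference was -0.20. Those 7 are shRNA A replicates 1 and 2 and the controls, with no shRNA B array. Leaving out any 1 of the 11 arrays also ended the call, with differences between -0.29 and -0.25.

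**Figure D1:**
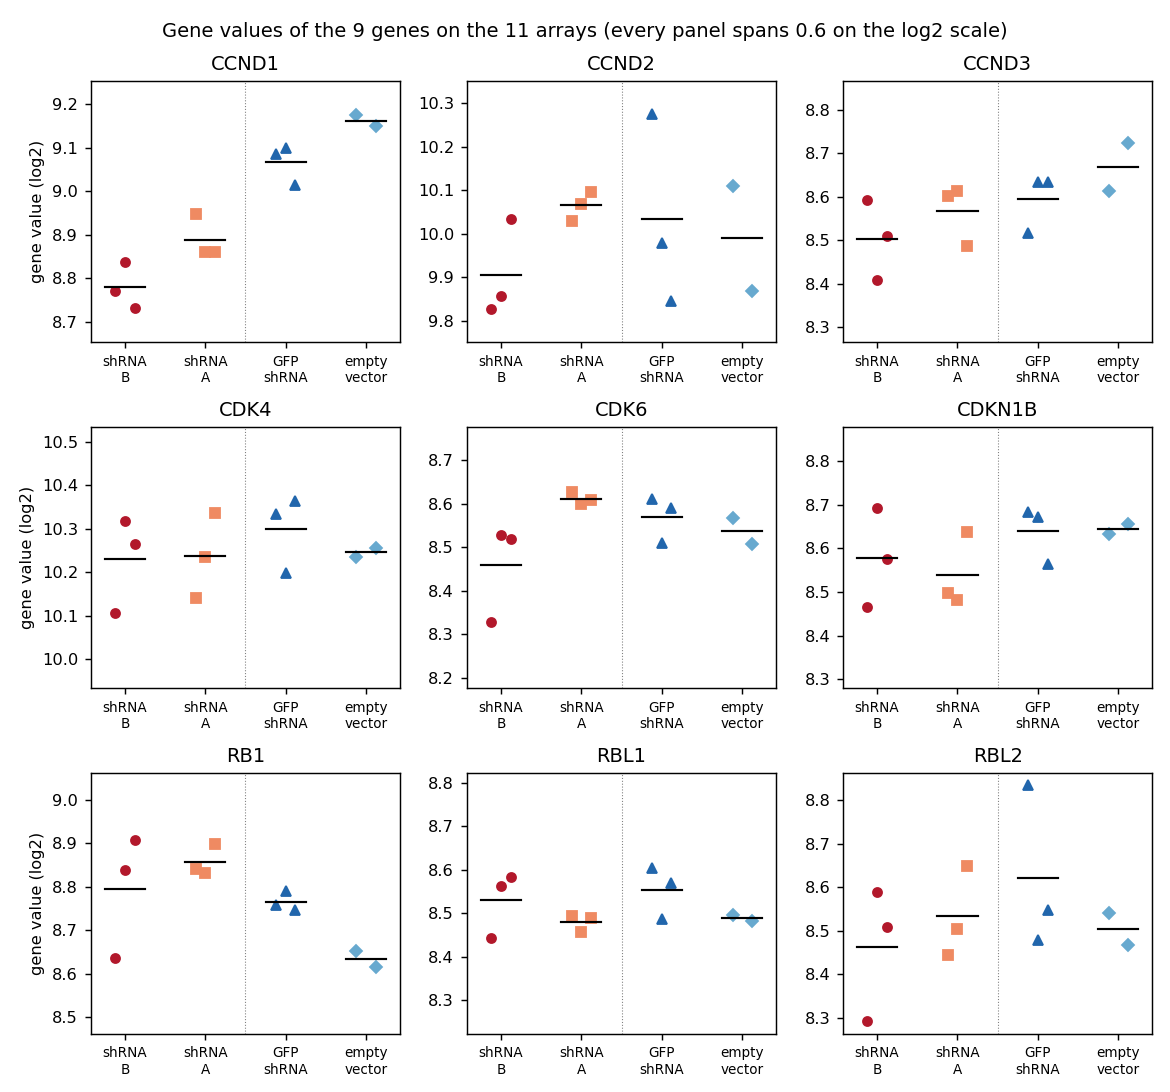
Gene values (log2, vertical axes) of the 9 genes on each of the 11 arrays, by construct, with shRNA B and shRNA A left of the dotted line and the controls GFP shRNA and empty vector right of it; points are arrays and bars are construct means. The CCND1 knockdown arrays sit between 8.73 and 8.95, all below the controls at 9.01 to 9.17, while the arms overlap for the other 8 genes.

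All 10 CCND1 probe sets used were lower on average in the knockdown arrays, of 12 on the array. Of all 222032 probe sets 61.5% were lower in this way, as were 84 of the 155 of the 9 genes. At 8 of the 10 both shRNAs were lower than the control mean; the exceptions were 3338194, where shRNA B minus control was 0.02, and 3338214, where shRNA A minus control was 0.01. The other pair was left out, 1 for its dim signal and 3338213 because it lacked an estimate on some arrays. The size was uneven along the gene: in order of probe set number, the knockdown minus control differences were -0.05 for 3338194, -0.28 for 3338195, -0.38 for 3338196 and -0.31 for 3338204. In the middle of the row they were -0.08 for 3338205, -0.24 for 3338207 and -0.10 for 3338212. At the end they were -0.03 for 3338214, -0.32 for 3338215 and -0.46 for 3338216. Larger and smaller differences were interspersed along the gene.

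Probe sets 3338195 and 3338215 had every knockdown array below every control. The last of the row, 3338216, had 8.74, 8.93 and 8.72 with shRNA B and 8.98, 9.15 and 8.54 with shRNA A, against 9.12, 9.12 and 9.24 with GFP shRNA and 9.54 and 9.47 with the empty vector. In that probe set 5 of the 6 knockdown arrays lay below the lowest control. Probe sets 3338195 and 3338214 lay within 0.3 of the dim level. Probe set 3338212 lay well above it and differed by only -0.10, with 10.20 ± 0.161 in the knockdown arrays (SD, n = 6) and 10.31 ± 0.072 among the controls (SD, n = 5).

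The shRNAs differed most at 3338196. It had 9.66, 9.56 and 9.62 with shRNA B and 9.93, 10.12 and 10.04 with shRNA A, against 10.01, 10.07 and 10.32 with GFP shRNA and 10.26 and 10.34 with the empty vector. All shRNA B arrays lay below all shRNA A arrays there, and the shRNA A arrays overlapped the controls. The share of all probe sets with such a gap between the shRNAs is not given here. Measured against the gene value of the same array, a quantity called the splicing index, this probe set was lower in shRNA B than in shRNA A by a difference of -0.31 (95% interval -0.55 to -0.07), which did not pass after adjustment (limma adjusted p = 0.883). Probe set 3338194 differed the other way, with a splicing index difference of 0.25 between shRNA B and shRNA A (95% interval 0.07 to 0.44, limma adjusted p = 0.874). Over the 10 probe sets, 8 were lower in shRNA B than in shRNA A, beside 51.8% of all probe sets.

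**Figure D2:**
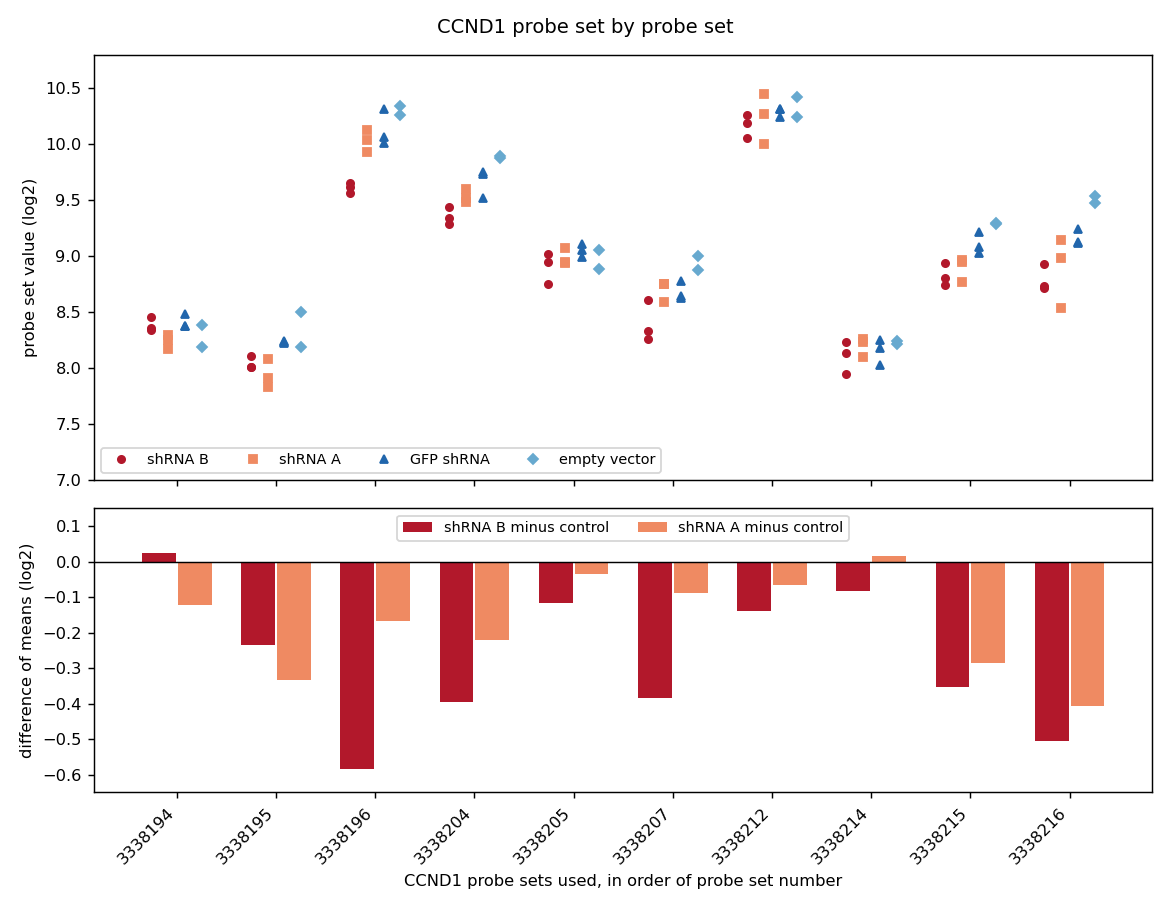
Upper panel, log2 values of the 10 CCND1 probe sets on the 11 arrays, in order of probe set number, each point an array and each symbol a construct; lower panel, difference of the mean of shRNA B or shRNA A from the control mean (log2). The shRNA B bars reach below the shRNA A bars at 8 of the 10 probe sets, and by most at 3338196.

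CCND2, which encodes cyclin D2, overlapped between the arms. It had 9.83, 9.86 and 10.03 with shRNA B and 10.03, 10.07 and 10.10 with shRNA A, against 10.28, 9.98 and 9.85 with GFP shRNA and 10.11 and 9.87 with the empty vector. The control arrays alone spanned the whole range of the shRNA A arrays, and the difference of -0.03 (SE 0.084, 95% interval -0.21 to 0.15) was smaller than the spread within either arm. Leaving out GFP shRNA replicate 1 turned it to 0.035, and leaving out both the brightest and the dimmest array turned it to 0.067. Of its 10 probe sets, 6 were lower and 4 higher in the knockdown arrays, beside 61.5% lower among all probe sets. shRNA B was lower than shRNA A by a difference of -0.16 (95% interval -0.39 to 0.07, limma adjusted p = 0.998). It was also lower at 8 of the 10 probe sets, beside 51.8% of all probe sets.

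Measured by the splicing index, knockdown minus control, the lowest CCND2 probe set was 3401716, and the gap between the shRNAs was wide there. It had 8.36, 8.46 and 8.63 with shRNA B and 8.88, 8.86 and 9.13 with shRNA A, against 9.30, 9.00 and 8.66 with GFP shRNA and 9.01 and 8.78 with the empty vector. All 3 shRNA B arrays lay below all other arrays, the closest values being 8.63 with shRNA B and 8.66 with GFP shRNA. This probe set was named as the gene's lowest, and the share of all probe sets with such a gap is not given here. The splicing index differed by -0.31 between shRNA B and shRNA A (95% interval -0.47 to -0.15), with an unadjusted limma p of 0.0013 and an adjusted p of 0.852. The highest was 3401715, with 11.80 ± 0.192 in knockdown arrays (SD, n = 6) and 11.60 ± 0.223 in control arrays (SD, n = 5), and there the arms overlapped.

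CCND3, which encodes cyclin D3, had 8.59, 8.41 and 8.51 with shRNA B and 8.60, 8.61 and 8.49 with shRNA A, against 8.52, 8.63 and 8.63 with GFP shRNA and 8.61 and 8.72 with the empty vector. The knockdown arrays lay lower on average but overlapped the controls, with a difference of -0.09 (SE 0.051, 95% interval -0.20 to 0.02). It was 0.0041 with the higher limit on dim probe sets and -0.017 over the arrays without the suffix. Of 9 probe sets, 7 were lower in the knockdown arrays, beside 61.5% of all probe sets. All 9 were lower in shRNA B than in shRNA A, beside 51.8% of all probe sets. The gene value differed by only -0.06 between the shRNAs (95% interval -0.21 to 0.08, limma adjusted p = 0.998). By splicing index its lowest probe set was 2953875, with 11.09 ± 0.149 in knockdown arrays (SD, n = 6) and 11.30 ± 0.171 in control arrays (SD, n = 5). Its highest was 2953871, with 9.41 ± 0.145 in knockdown arrays and 9.38 ± 0.237 in control arrays.

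CDK4, a catalytic partner of the D-type cyclins, had 10.11, 10.32 and 10.27 with shRNA B and 10.14, 10.23 and 10.34 with shRNA A, against 10.33, 10.20 and 10.36 with GFP shRNA and 10.24 and 10.26 with the empty vector. The arms covered nearly the same range, and the difference was -0.04 (SE 0.065, 95% interval -0.18 to 0.10). Averaging the probe sets gave -0.12, the higher limit on dim probe sets gave -0.15, and it was -0.0042 without the brightest and the dimmest array. Yet 12 of its 14 probe sets were lower in the knockdown arrays, against 61.5% of all probe sets, and 1 of the 12 stood apart. Probe set 3458793 had 10.93, 11.00 and 10.77 with shRNA B and 10.63, 10.86 and 10.74 with shRNA A, against 11.18, 11.10 and 11.15 with GFP shRNA and 11.10 and 11.31 with the empty vector.

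Every knockdown array lay below every control at that CDK4 probe set, with a level difference of -0.35 and a splicing index difference of -0.31 (SE 0.075). Over the 9 genes, 3 of 155 probe sets had every knockdown array below every control, this one and a pair of CCND1, against 1.65% of all probe sets. By splicing index 3458793 was the lowest CDK4 probe set and 3458785 the highest, with 8.51 ± 0.110 for 3458785 in knockdown arrays (SD, n = 6) and 8.45 ± 0.091 in control arrays (SD, n = 5). The gene value did not separate the shRNAs, with a difference of -0.01 between shRNA B and shRNA A (95% interval -0.20 to 0.18, limma adjusted p = 1.00).

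CDK4 is known as a target of the MYC transcription factor, which binds the E-box CACGTG, and MYC itself was not analysed here. The 300 bases around the CDK4 start, from 250 before to 50 after it, are shown to let a reader see those letters. They lie at chr12:57752261-57752560 on the minus strand of GRCh38.p14 in RefSeq and are written 5′ to 3′ along the gene, with each E-box in capitals:
CDK4 promoter: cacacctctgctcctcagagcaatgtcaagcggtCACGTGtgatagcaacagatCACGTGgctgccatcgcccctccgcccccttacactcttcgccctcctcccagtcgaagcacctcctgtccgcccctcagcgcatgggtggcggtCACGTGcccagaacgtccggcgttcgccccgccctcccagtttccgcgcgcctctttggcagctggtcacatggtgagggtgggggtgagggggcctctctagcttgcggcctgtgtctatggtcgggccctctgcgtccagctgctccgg
The 3 matches lie at positions -216 to -211, -196 to -191 and -101 to -96 from the start, where the base at the start is +1. Over both strands, 7.23% of 34943 promoters of this length held at least 1 such match.

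CDK6, the other kinase of the pair, was the only one of the 9 genes whose 95% interval for shRNA B minus shRNA A left out 0. It had 8.33, 8.53 and 8.52 with shRNA B and 8.63, 8.60 and 8.61 with shRNA A, against 8.61, 8.51 and 8.59 with GFP shRNA and 8.57 and 8.51 with the empty vector. All 3 shRNA B arrays lay below and all 3 shRNA A arrays above the control mean of 8.56. The pooled difference of -0.02 (SE 0.054) thus averaged a pair of unlike values. It turned to 0.019 without shRNA B replicate 1 and to 0.055 over the arrays without the suffix, which hold no shRNA B array. shRNA B was lower than shRNA A by a difference of -0.15 (95% interval -0.29 to -0.02), with an unadjusted limma p of 0.029 and an adjusted p of 0.998. Of all 14555 genes, 638 had an unadjusted limma p under 0.05 between the shRNAs, so nothing is read from this 1 gene of 9. Of 19 probe sets 17 were lower in shRNA B than in shRNA A, beside 51.8% of all probe sets. They were read on the same arrays and do not count as separate observations. The array-name suffix marked every shRNA B array but only replicate 3 of shRNA A, and its part in this difference was not tested. shRNA B replicate 1, the dimmest array, was the lowest, and without it and the brightest array the difference between the shRNAs was -0.09.

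Of the 19 CDK6 probe sets, 13 were higher and 6 lower in the knockdown arrays, beside 61.5% lower among all probe sets. This was the opposite balance from the gene value. The highest by splicing index was 3061360, with 9.67 ± 0.221 in knockdown arrays (SD, n = 6) and 9.46 ± 0.207 in control arrays (SD, n = 5). The lowest was 3061324, with 8.08 ± 0.252 in knockdown arrays and 8.26 ± 0.344 in control arrays, which themselves ran between 7.92 and 8.73. Both probe sets overlapped between the arms. Probe set 3061328 had the lowest adjusted p of the splicing index among the 155 between the shRNAs, with a difference of 0.25 (95% interval 0.15 to 0.34, limma adjusted p = 0.821), while its own level differed by 0.09.

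CDKN1B, which encodes p27, had 8.47, 8.69 and 8.58 with shRNA B and 8.50, 8.48 and 8.64 with shRNA A, against 8.68, 8.67 and 8.57 with GFP shRNA and 8.63 and 8.66 with the empty vector. The arms overlapped, and the difference was -0.08 (SE 0.050, 95% interval -0.19 to 0.02). It was -0.15 over the arrays without the suffix and -0.027 when probe sets were averaged. The gene rested on 4 probe sets, the fewest of the 9 genes, of which 3 were lower and 1 higher in the knockdown arrays. The higher one, 3405456, had 8.35 ± 0.128 in knockdown arrays (SD, n = 6) and 8.23 ± 0.048 in control arrays (SD, n = 5), and its splicing index differed by 0.21 (SE 0.053). The lowest by splicing index was 3405455, with a level difference of -0.09. Between shRNA B and shRNA A the gene value differed by 0.04 (95% interval -0.11 to 0.19, limma adjusted p = 0.998).

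RB1, the pocket protein of the retinoblastoma gene, was the only one of the 9 genes with a higher mean in the knockdown arrays. It had 8.64, 8.84 and 8.91 with shRNA B and 8.84, 8.83 and 8.90 with shRNA A, against 8.76, 8.79 and 8.75 with GFP shRNA and 8.65 and 8.62 with the empty vector. Of the 6 knockdown arrays 5 lay above every control, and the remaining one, shRNA B replicate 1, lay at the level of the empty vector. The difference was 0.11 (SE 0.056, 95% interval -0.01 to 0.23), and as linear signal above the array median the knockdown arrays averaged 119% of control.

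Of the 30 RB1 probe sets, 28 were higher in the knockdown arrays, with differences between -0.08 and 0.28, while 61.5% of all probe sets were lower. They were read on the same arrays, so they do not count as separate observations. The control constructs were also apart, since the 3 GFP shRNA arrays lay above both empty vector arrays, by a tested difference of 0.13 (95% interval -0.04 to 0.30, limma adjusted p = 0.949). The distance from shRNA A at 8.86 ± 0.037 (SD, n = 3) to GFP shRNA at 8.77 ± 0.022 (SD, n = 3) was thus no larger than that from GFP shRNA to the empty vector at 8.63 ± 0.025 (SD, n = 2). The highest probe set by splicing index was 3489082, with 10.00 ± 0.235 in knockdown arrays (SD, n = 6) and 9.72 ± 0.109 in control arrays (SD, n = 5). The lowest was 3489045, with 8.52 ± 0.091 in knockdown arrays and 8.60 ± 0.032 in control arrays.

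RBL1, which encodes p107, had 8.44, 8.56 and 8.58 with shRNA B and 8.49, 8.46 and 8.49 with shRNA A, against 8.60, 8.49 and 8.57 with GFP shRNA and 8.50 and 8.48 with the empty vector. The arms covered the same range, with a difference of -0.02 (SE 0.043, 95% interval -0.11 to 0.07), the narrowest interval of the 9 genes, and it turned to 0.022 with the higher limit on dim probe sets. Of 30 probe sets 18 were lower and 12 higher, between -0.11 and 0.14, beside 61.5% lower among all probe sets. The highest by splicing index was 3904766, with a level difference of 0.14, and the lowest 3904749, with a level difference of -0.11. Between shRNA B and shRNA A the gene value differed by 0.05 (95% interval -0.08 to 0.18, limma adjusted p = 0.998).

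RBL1 is itself a known E2F target and its promoter is printed for the E2F letters it holds. The sequence covers 250 bases before to 50 after the start, at chr20:37095948-37096247 on the minus strand of GRCh38.p14 in RefSeq, written 5′ to 3′ along the gene with matches to TTTNNCGC on either strand in capitals:
RBL1 promoter: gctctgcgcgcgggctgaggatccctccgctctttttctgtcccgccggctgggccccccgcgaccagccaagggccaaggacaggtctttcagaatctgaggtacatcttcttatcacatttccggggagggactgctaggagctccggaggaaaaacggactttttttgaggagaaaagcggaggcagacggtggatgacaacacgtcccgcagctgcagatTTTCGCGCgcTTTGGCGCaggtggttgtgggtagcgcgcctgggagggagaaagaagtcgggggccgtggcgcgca
The matches are TTTCGCGC at -26 to -19 and TTTGGCGC at -16 to -9. Of the 9 genes 7 had promoters in the RefSeq table, CCND1 and CCND2 not being matched, and RBL1 was the only one of the 7 with this motif, which 6.85% of all promoters held. The Sp1 motif GGGCGG was found in 5 of the 7 genes, CCND3, CDK4, CDK6, CDKN1B and RBL2, and in 44.9% of all promoters. The E-box was found in CDK4 and CDK6, and the AP-1 motif TGANTCA at the 1 listed start of RB1 and in 7.72% of all promoters. Of the 7 genes 0 held the CRE motif TNACGTCA, the TCF motif TCAAAG or the C/EBP and ATF motif TGATGNAA, which 3.01%, 12.9% and 3.62% of all promoters held. CCND3 had 3 starts in the table and CDK6 and RBL2 had 2 each, all motifs were searched on both strands, and no match of one motif overlapped a match of another. RB1 had 1 start, at chr13:48476200-48476499 with 38.3% GC, while the other starts of the 7 genes ranged from 53.0% to 78.0%. Whether this is the main start of RB1 was not checked, so the motif counts cover RB1 at this window only. Starts of a gene outside the table were not searched, so a motif not found here may lie at another start.

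RBL2, which encodes p130 and joins the MuvB proteins in the DREAM complex of resting cells, had 8.29, 8.59 and 8.51 with shRNA B and 8.44, 8.50 and 8.65 with shRNA A, against 8.83, 8.48 and 8.55 with GFP shRNA and 8.54 and 8.47 with the empty vector. The lowest value was that of the dimmest array and the highest that of the brightest. The arms overlapped, with a difference of -0.08 (SE 0.071, 95% interval -0.23 to 0.08). It was -0.011 without GFP shRNA replicate 1, -0.035 without shRNA B replicate 1 and 0.031 without both. Of 29 probe sets 20 were lower and 9 higher in the knockdown arrays, beside 61.5% lower among all probe sets. The lowest by splicing index was 3661089, with 9.16 ± 0.089 in knockdown arrays (SD, n = 6) and 9.38 ± 0.142 in control arrays (SD, n = 5). The highest was 3661075, with 8.80 ± 0.160 in knockdown arrays and 8.65 ± 0.276 in control arrays.

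The gene value of RBL2 ran against most of its probe sets between the shRNAs. It was lower in shRNA B than in shRNA A by a difference of -0.07 (95% interval -0.28 to 0.14, limma adjusted p = 0.998). Yet only 7 of its 29 probe sets were lower in shRNA B, beside 51.8% of all probe sets. With the mean of the probe sets in place of the median the difference was 0.05. The splicing index of 10 of the 29 had an unadjusted limma p under 0.05 between the shRNAs, and 0 passed after adjustment, the lowest adjusted p being 0.855.

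**Figure D3:**
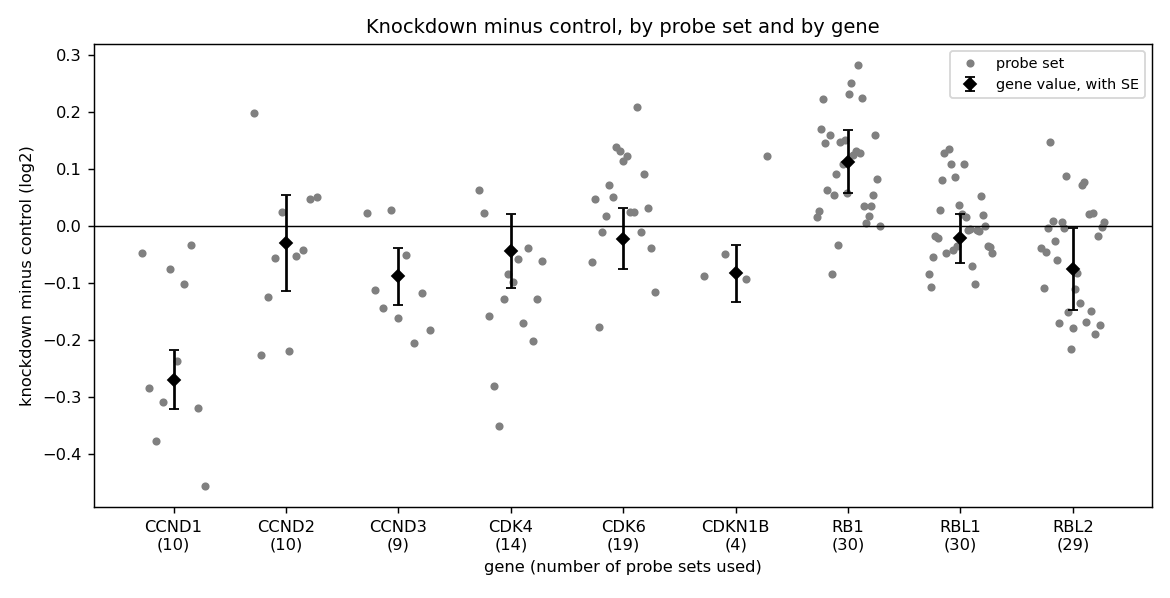
Difference between knockdown and control means (log2, vertical axis) for every probe set used of the 9 genes (grey points, in order of probe set number within a gene) and for the gene value (black diamonds with the standard error), with the number of probe sets in brackets. The 10 points of CCND1 all lie below 0 and 28 of the 30 of RB1 lie above it.

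Within the arms, 0 of the 9 genes passed between shRNA B and shRNA A, and 0% of all genes did; at an unadjusted limma p under 0.05 there were 638 of 14555 genes. The mean was lower in shRNA B for 7 of the 9 genes, against 51.2% of all genes, and for 82 of their 155 probe sets, against 51.8% of all probe sets. The median difference of the 9 was -0.06, beside -0.00094 over all genes. Between GFP shRNA and the empty vector 0 of the 9 passed, as did 0.00687% of all genes, with 648 genes at an unadjusted limma p under 0.05. GFP shRNA was higher for 6 of the 9, against 64.5% of all genes.

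Exon usage was tested by the splicing index in the same contrasts. Between shRNA B and shRNA A 0 of the 155 probe sets passed, as did 0% of all 222032, while 23 (14.8%) had an unadjusted limma p under 0.05, against 5.52% of all. RBL2 contributed 10 of the 23, CCND1 and CDK6 3 each, and CCND3 none. These probe sets share the gene value that is subtracted from them, so those of 1 gene do not count as separate observations. Between GFP shRNA and the empty vector 0 of the 155 and 0% of all passed, and 8 (5.16%) had an unadjusted limma p under 0.05, against 4.49% of all.

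**Figure D4:**
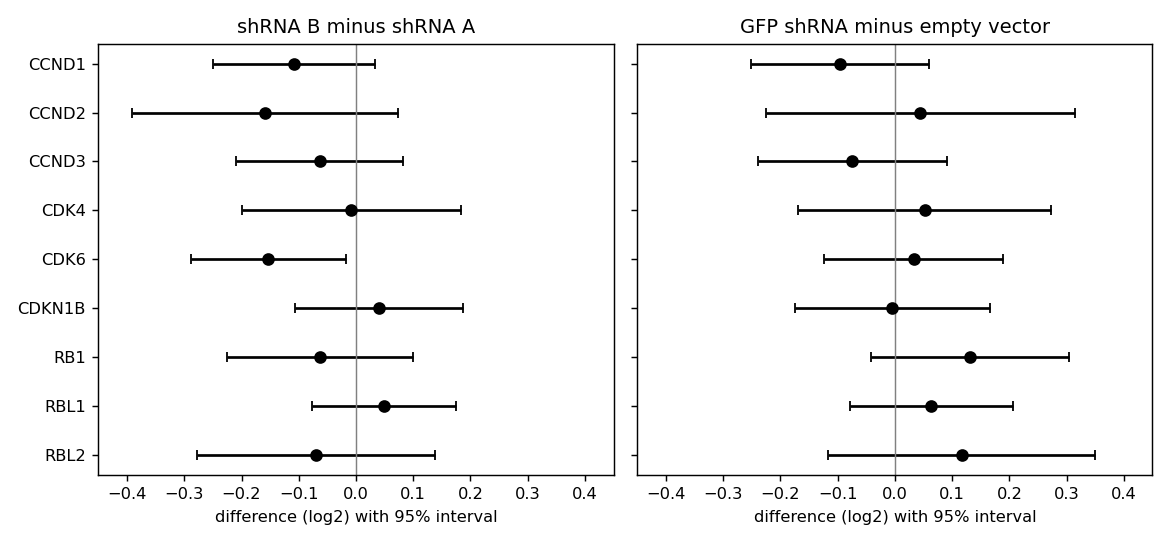
Difference in gene value (log2, horizontal axis) with its 95% interval from limma for the 9 genes, left panel shRNA B minus shRNA A, right panel GFP shRNA minus empty vector. Every interval includes 0 except that of CDK6 between the shRNAs, which runs from -0.29 to -0.02.

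Likeness to CCND1 over the 11 arrays is given as a description of arrays that share their groups. Pearson's r with CCND1 was 0.56 for CCND3, 0.50 for CDKN1B and -0.55 for RB1, and lay between 0.00 and 0.30 for the other 5 genes. After subtracting each construct's mean, r was -0.29 for CCND3, 0.36 for CDKN1B, -0.02 for RB1 and -0.33 for CDK4, and lay between -0.03 and 0.10 for the other 4. The 5 genes outside the set with the highest r were EMD at 0.94, COX8A at 0.94, PTOV1 at 0.92, HMG20B at 0.92 and ALAS1 at 0.91. EMD encodes the nuclear envelope protein emerin, COX8A a subunit of cytochrome c oxidase, HMG20B a subunit of the LSD1-CoREST complex and ALAS1 an enzyme of haem synthesis. With construct means subtracted, r was 0.29 for EMD, 0.47 for COX8A, 0.18 for PTOV1, -0.17 for HMG20B and 0.84 for ALAS1.

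Other genes of the G1 pathway were read from 7 lists holding 67 genes, of which 61 were measured. The lists were chosen with earlier results of these data known, so the counts and adjusted p values from them are descriptions. In the knockdown arrays 0 rose and 1 fell by limma (1.64%, against 0.22% of all genes). The 1 was RBBP4, a histone-binding subunit of the MuvB core and of several chromatin complexes. RBBP4 had 9.80, 9.77 and 9.71 with shRNA B and 9.77, 9.81 and 9.71 with shRNA A, against 10.01, 10.08 and 10.11 with GFP shRNA and 10.05 and 10.00 with the empty vector. The arms did not overlap and the shRNAs did not differ beyond their spread. The difference was -0.29 (SE 0.055, limma adjusted p = 0.049), and RBBP4 passed in 1 of the 11 fits with 1 array left out, that without empty vector replicate 2. The mean was lower for 47 of the 61 genes (77.0%), against 67.1% of all genes, with a median of -0.06 beside -0.02 over all genes.

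Among the factors that act with the pocket proteins, 7 of the 10 E2F and DP genes had a lower mean, with a list median of -0.07. E2F4, the main E2F partner of p130, stood at 9.13 ± 0.130 in knockdown arrays (SD, n = 6) and 9.39 ± 0.089 in control arrays (SD, n = 5), a difference of -0.26 that did not pass (limma adjusted p = 0.097), and E2F1 differed by -0.13. In the MuvB core and B-MYB list 5 of 6 genes had a lower mean, with a median of -0.09. Of the 4 measured of 6 other CDK inhibitors 3 had a lower mean, with a median of -0.07. CDKN2A, which encodes the CDK4 and CDK6 inhibitor p16 and also ARF, had 9.89 ± 0.159 in knockdown arrays (SD, n = 6) and 10.19 ± 0.105 in control arrays (SD, n = 5), a difference of -0.30 that did not pass (limma adjusted p = 0.105). CDKN2C, which encodes p18, differed by -0.11.

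The E2F target genes, which include the replication genes, had a lower mean for 13 of 15 measured, a median of -0.06 and 0 that passed. CDT1, a replication licensing factor, differed by -0.31 (limma adjusted p = 0.184) and UHRF1, which maintains DNA methylation at replication, by -0.23 (limma adjusted p = 0.160). The E-type cyclin and CDK2 list had a lower mean for 6 of 8 genes and a median of -0.02. Its largest differences were -0.11 for CDC25A, the phosphatase that activates CDK2, and -0.07 for MNAT1, a subunit of the CDK-activating kinase. For the turnover of cyclin D and p27, 6 of 9 genes had a lower mean, with a median of -0.04. SKP2, which marks p27 for degradation, differed by -0.17 and CUL1, its cullin scaffold, by -0.13. Among transcription factors known to act on CCND1, 7 of 9 measured of 12 listed had a lower mean, with a median of -0.07, and JUN differed by -0.20 and LEF1 by -0.18.

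**Figure D5:**
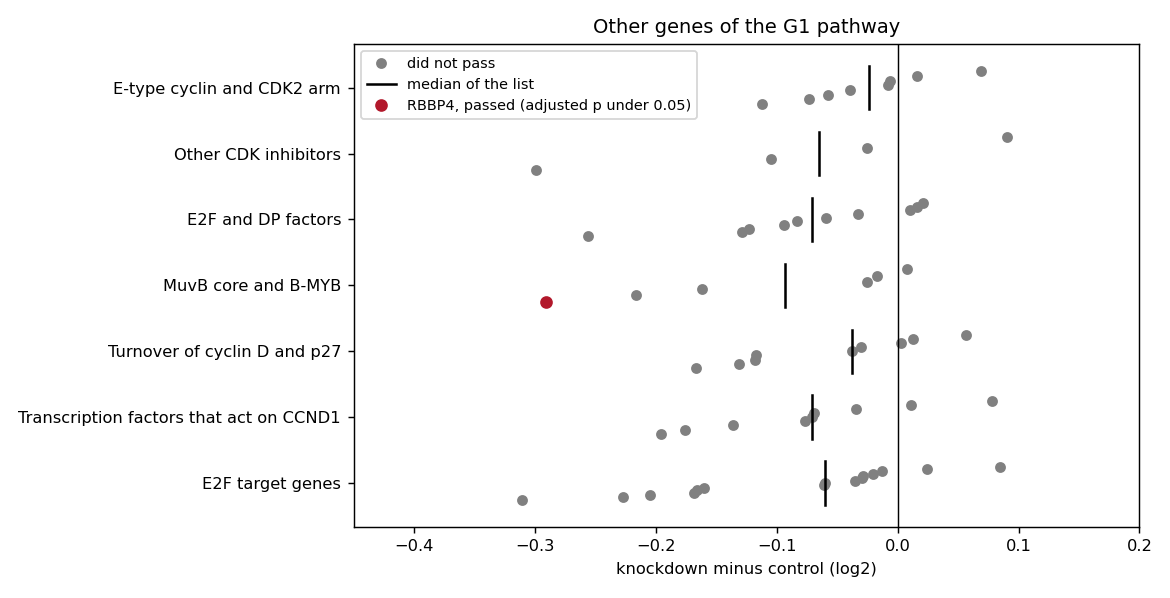
Difference between knockdown and control (log2, horizontal axis) for the 61 measured genes of 7 G1 pathway lists, 1 point a gene, with the list medians as bars. RBBP4 at -0.29 is the only point that passed, and all 7 medians lie between -0.09 and -0.02.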

How the data were processed

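The deposited table holds the authors' log2 values of 1399022 exon probe sets on 11 arrays, unit and scale being read from the values. How the signals were corrected and normalized, with what software and on which genome build, is not given in the sources used here, and no coordinates of probe sets are printed. Of the probe sets, 355799 carried 1 gene symbol in the array's annotation, 15195 several and 1028028 were not listed. Of 19536 symbols, 2965 were updated through RefSeq. A probe set was used if it carried 1 symbol, had a value on all arrays and reached on average the median of the table (7.91). A gene needed 4 such probe sets, which left 222032 probe sets and 14555 genes. Each array lacked an estimate for 13190 to 15431 probe sets. Of 171 probe sets of the 9 genes, 155 were used, 14 were too dim and 2 lacked an estimate.

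Gene values were medians of probe sets, and the splicing index was the probe set value minus the gene value. Differences were tested with limma 3.58.1 in R 4.3.3 (lmFit, eBayes with a trend) over all 11 arrays, with Benjamini-Hochberg adjustment over all genes or probe sets, and tested on simulated data. The pooled comparison used 2 levels, shRNA B against shRNA A 3 levels and the control constructs 4 levels. The number of arrays limits the precision. The genes, pathway lists and naming rules were chosen with earlier results of these data known. The rule named HTATSF1, the 9 genes, all CCND1 probe sets, the largest rise and fall in splicing index of each other gene, the list members that passed or otherwise the 2 largest changes, and the 5 genes most like CCND1. E2F, Sp1, CRE, E-box, TCF, AP-1 and C/EBP-ATF letters were searched in both strands of 34943 RefSeq promoters. CDK6 probe set 3061328 was named after its values were seen. Alternatives changed the filter, summary, normalization, scale, variance trend, blocks and arrays.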

Additional observations from a re-analysis of the deposited data

Results flagged for a closer look

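In 3 of the 20 sets of arrays examined (10 genes, HTATSF1 included, in each arm), a single array lay far from the rest of its arm. Chance marks about 1 set in 20, but the sets share the same arrays, so the count is not read against that rate. CDK6 was 8.33 in shRNA B replicate 1, against 8.52 to 8.63 in the other 5 knockdown arrays. RB1 was 8.64 in the same array, against 8.83 to 8.91 in the other 5. RBL2 was 8.83 in GFP shRNA replicate 1, against 8.47 to 8.55 in the other 4 controls. These are the dimmest and the brightest array of the study, and the part of brightness in these values was not tested.

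CDK6 differed between the shRNAs by -0.15 (log2), all 3 shRNA B arrays lying below and all 3 shRNA A arrays above the control mean. The array-name suffix marked every shRNA B array but only replicate 3 of shRNA A, and no alternative run for this difference handled it. The test of that difference did not pass after adjustment (limma adjusted p = 0.998, with adjusted p from 0.843 to 1.00 over its 19 alternatives), and it kept its direction in all 19, between -0.40 and -0.09.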

How the results depend on the processing

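The CCND1 difference between knockdown and control kept its sign under all 21 alternatives and its side of the threshold under 3: a higher limit on dim probe sets, the mean of the probe sets, and eBayes without a trend. It no longer passed with no filter on dim probe sets (-0.262), after quantile normalization (-0.249), with a block for the suffix of the array names or over only the arrays without it (-0.201 in both), as signal above the array median (-0.492) or, in an alternative chosen after seeing the data, without the brightest and the dimmest array (-0.262). Leaving out 1 array at a time gave -0.293 to -0.250, and CCND1 passed in none of these 11 fits. The genes were chosen with this comparison in view, so nothing is read from passing it. The count of the 9 genes that passed was 0 instead of 1 in each of the fits in which CCND1 did not pass. In both fits that handled the suffix, the difference rested on shRNA A replicates 1 and 2 against the controls, without shRNA B. With the replicate block, for a paired reading of the replicate numbers, CCND1 stood at -0.260 and 0 of the 9 passed. With each construct's mean subtracted, arrays of different constructs were correlated in pairs. Of same-numbered pairs 5 of 15 correlated above 0.1 (median 0.041), against 6 of 30 others (median -0.022). On those values 4 of 11 arrays correlated best with an array of their own number. So few pairs cannot decide whether the numbers mark a pairing. HTATSF1 lay between -0.951 and -0.245 over its 21 alternatives and passed in 6. The G1 pathway count was 4 with the higher limit (RBBP4, CDKN2A, CDT1 and MNAT1, seen after the fact), 1 without a trend, 0 to 1 when 1 array was left out, and 0 in the other alternatives. All genes called numbered 32 in the main setting, 253 with the higher limit, 134 with the mean of the probe sets, 89 without a trend, 22 after quantile normalization, 19 with no filter, 10 with the replicate block, 25 as signal above the median, 0 with the suffix handled or without the brightest and the dimmest array, and 2 to 47 with 1 array left out. In the signal scale the median of all genes was -0.08. Counts of the 9 genes and of their probe sets within the arms were 0 in every alternative run.

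The pooled differences of CCND2, CCND3, CDK6, RBL1 and RBL2 changed sign in at least 1 alternative, over ranges of -0.073 to 0.067, -0.218 to 0.0041, -0.071 to 0.055, -0.059 to 0.022 and -0.194 to 0.031 in that order, while CDK4, CDKN1B and RB1 kept theirs. Small differences within the arms changed sign, the lowest adjusted p among these being 0.952. For GFP shRNA minus empty vector, with no filter CCND1 was 0.016, CCND3 0.023 and CDK6 -0.060; with the higher limit CDK4 was -0.157 and CDK6 -0.013; with the mean of the probe sets CCND2 was -0.0080, CDK4 -0.078 and CDKN1B 0.0024; after quantile normalization CCND2 was -0.0018 and CDK6 -0.0021; without the brightest and the dimmest array CCND2 was -0.077. For shRNA B minus shRNA A, with the higher limit RBL1 was -0.041 and RBL2 0.072; with the mean of the probe sets CDK4 was 0.042 and RBL2 0.054; without the brightest and the dimmest array CDK4 was 0.054, RB1 0.016 and RBL2 0.015. Leaving out 1 array gave -0.078 to 0.166 for CCND2 and -0.026 to 0.033 for CDKN1B between the controls, and between the shRNAs -0.056 to 0.054 for CDK4, -0.017 to 0.096 for CDKN1B, -0.120 to 0.016 for RB1 and -0.133 to 0.015 for RBL2. The cause was not tested. CDKN1B had no value with the higher limit.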
